A study of Mus musculus with 7 samples.

Results

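The STARS-SRF axis and a set of actin remodelling genes were followed in regrowing mouse plantaris, a fast calf muscle. The members were fixed by name: Abra, Srf, Enah, Wdr1, Cfl1, Cfl2, Tmod1, Tmod4, Lmod2 and Cap2, 10 of the 19938 genes with an array row of their own. Each gene was read from the row with its symbol alone, and for Tmod1, which had more than 1 such row, from the row with the highest mean log2 intensity. The filter on low values kept 12102 genes, and all 10 members were among them, with values above the median of all rows on every one of the 7 arrays.

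The mice were male C57BL/6J animals, 5 months old, whose hind limbs had been unloaded by suspension for 2 weeks. The groups were d0, the end of suspension and the control of the labels, and d1, d3, d5, d7, d10 and d14 of regrowth after it. Every group had therefore been suspended, and no muscle of a mouse that had never been suspended was analysed here. Each group was 1 pool of left plantaris RNA from 6 animals on 1 Affymetrix Mouse Gene 1.0 ST array, so that no group had a replicate, a difference between days has no error of its own and its precision is limited by how few arrays there are.

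STARS, encoded by Abra, is a striated muscle protein that binds actin and promotes the assembly of actin filaments. Filament assembly lowers the pool of free actin monomers, which releases the MRTF coactivators to enter the nucleus and act with serum response factor (SRF). SRF binds a DNA motif called the CArG box, and many genes of the actin cytoskeleton, the Srf gene among them, are known SRF targets. The other members act on the filament itself. Enah (Mena) helps filaments to elongate, the cofilins Cfl1 and Cfl2 sever them with the help of Wdr1 (Aip1), Cap2 recycles monomers, Tmod1 and Tmod4 cap the pointed ends of thin filaments, and the leiomodin Lmod2 lengthens them.

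The stretch before the start of Srf, Wdr1 and Lmod2 is shown, and each holds a CArG box or a near match. That of Cfl1 holds a near match too and is not shown. RefSeq promoters (GRCm38.p6) matched 9 of the 10 members by symbol. Abra had no match, so its promoter was not searched for any motif. In the 250 bases before the annotated start, read on both strands, an exact CArG box occurred in 1 of the 9 members, Srf, against 1.47% of 32851 promoters of all genes. Srf held 2 copies, and 0.0183% of all promoters held at least 2. A box with 1 base outside the consensus, counted apart from the exact box, occurred in 4 of the 9 (Srf, Wdr1, Lmod2 and Cfl1), against 17.5% of all promoters. Below, each sequence runs 5′ to 3′ along the gene, and capitals mark the exact and the near CArG boxes. Srf lies on the minus strand at chr17:46556163-46556412, Wdr1 on the minus strand at chr5:38561700-38561949 and Lmod2 on the plus strand at chr6:24597521-24597770.
Srf: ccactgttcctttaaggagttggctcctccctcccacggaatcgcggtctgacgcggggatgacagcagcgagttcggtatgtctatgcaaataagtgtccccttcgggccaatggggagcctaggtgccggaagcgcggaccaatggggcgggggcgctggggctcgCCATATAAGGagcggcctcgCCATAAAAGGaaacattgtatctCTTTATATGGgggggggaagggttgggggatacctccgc
Wdr1: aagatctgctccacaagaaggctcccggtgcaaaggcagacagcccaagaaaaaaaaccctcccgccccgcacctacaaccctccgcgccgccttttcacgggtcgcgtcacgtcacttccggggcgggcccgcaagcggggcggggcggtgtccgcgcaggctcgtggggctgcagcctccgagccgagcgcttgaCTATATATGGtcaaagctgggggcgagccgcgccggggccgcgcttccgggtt
Lmod2: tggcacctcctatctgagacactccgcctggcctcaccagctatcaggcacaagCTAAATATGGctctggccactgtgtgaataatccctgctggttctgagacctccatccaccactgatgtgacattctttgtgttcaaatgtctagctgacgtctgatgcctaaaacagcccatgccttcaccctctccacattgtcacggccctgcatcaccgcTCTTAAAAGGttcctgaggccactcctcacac

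The exact boxes of Srf, CCATATAAGG and CCATAAAAGG, began 82 and 62 bases before the start, and a near match, CTTTATATGG, followed 39 bases before it. The near match of Wdr1, CTATATATGG, began 53 bases before the start. Lmod2 had one, CTAAATATGG, 196 bases before the start and another, TCTTAAAAGG, 32 bases before it. Cfl1 had CGTTTTTTGG 165 bases before its start. The MCAT element (CATTCC), bound by TEAD factors, was found in Tmod1 alone, against 12.6% of all promoters. The MEF2 site, the ERR element (TCAAGGTCA) and the AP-1 site (TGANTCA) were found in 0 of the 9, against 2.92%, 0.387% and 6.75% of all promoters. A match is a run of letters, not a measured binding site, and a missing match refers to these 250 bases alone.

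**Figure D1:**
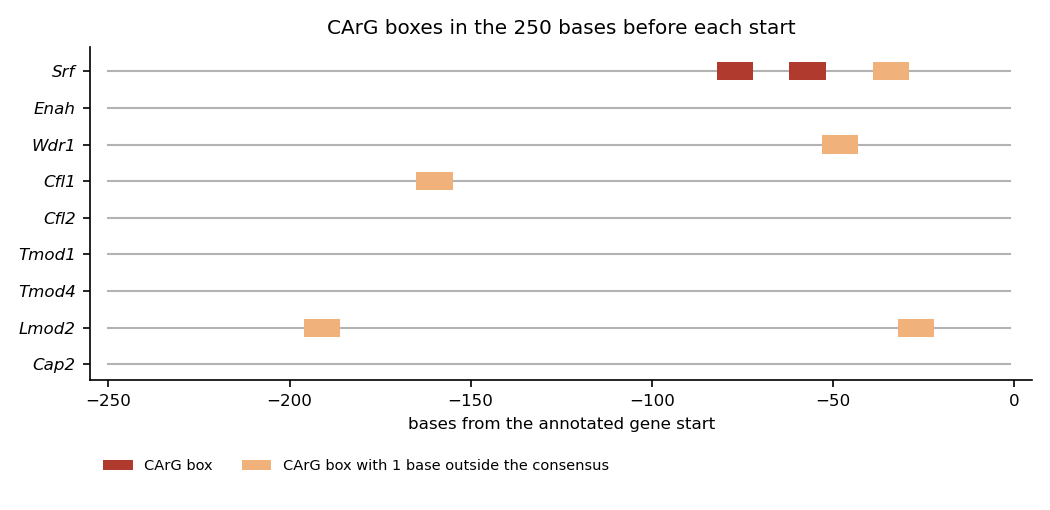
Positions of exact and near CArG boxes in the 250 bases before the annotated start of 9 genes, with Abra not searched. The horizontal axis is the distance from the start in bases, each line is a gene, dark blocks are exact boxes and light blocks have 1 base outside the consensus. Srf carries the 2 exact boxes, 82 and 62 bases before its start.

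The arrays were comparable in scale, with medians between 128.1 and 131.8 intensity units over 35556 rows. The 7 fast fibre markers, Myh4, Myh1, Acta1, Ckm, Mylpf, Tnnt3 and Actn3, lay between 8071 and 21180 on every array. The 4 heart muscle markers (Myh6, Nppa, Tnni3, Mybpc3) summed to between 440.4 and 534.3 units per array. The d0 array was often the low one: it was the lowest of the 7 for 39.4% of kept genes, and 61.1% to 72.2% of kept genes lay above it on the later arrays. The median kept gene lay 0.048 to 0.10 above d0 on the log2 scale. For this reason the d1 ratio of each of the 10 genes, and the d1 median of each gene list, is also given against d14; for all kept genes that median was 0.0029. The d1 array was the highest of the 7 for 28.6% of kept genes. The 2 arrays that differed most were d1 and d7 (robust SD of log2 differences 0.190). In whole muscle, a change in the number of cells of a type and a change in RNA per cell cannot be told apart.

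Abra was among the genes with the largest ratios on the first day of reloading. Its intensity was 2253 at d0 and 7081 at d1, then 4909.6, 4337, 4082, 3503 and 3617 on days 3, 5, 7, 10 and 14. It was highest at d1 and lowest at d0, and the later days lay between these. At d1 it was 3.14-fold above d0 (log2 1.65) and 1.96-fold above d14 (0.97). Of the kept genes, 0.157% had a higher d1 ratio to d0. At d14 the Abra signal was still 1.61-fold above d0 (0.68), so that 41.3% of the d1 difference on the log2 scale was left.

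Srf differed far less than Abra. Its intensity was 817 at d0 and 984 at d1, then 1079, 896, 962.5, 962.3 and 966 on days 3, 5, 7, 10 and 14. The highest value fell on d3, 1.32-fold above d0 (0.40), and the d1 ratio was 0.27, which 21.9% of kept genes exceeded. From d7 to d14 the values were nearly level, about 0.24 above d0 on each day. Against d14, the d1 ratio was 0.026, and the reloading days lay between -0.11 at d5 and 0.16 at d3. Between any 2 arrays, kept genes differed with a robust SD of 0.0896 to 0.190 on the same scale. That is a spread over genes and not an error of the Srf ratio.

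Enah had the largest ratio of the 10 genes. Its intensity was 507 at d0 and 2089 at d1, then 1089, 807, 711, 748 and 576 on days 3, 5, 7, 10 and 14. At d1 it was 4.12-fold above d0 (2.04) and 3.63-fold above d14 (1.86). It held place 10 of the 12102 kept genes by d1 ratio. The d14 array came within 0.18 of d0, leaving 9.04% of the d1 difference, and 24.9% of kept genes had a higher d14 ratio. Enah and Abra thus stood close together at d3, at 1.10 and 1.12, and apart at d14, at 0.18 and 0.68; the difference between the genes was not tested.

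Among the genes of filament severing, Wdr1 led. Its intensity was 873 at d0 and 1919.5 at d1, then 1499, 1404, 1256, 1264 and 1115 on days 3, 5, 7, 10 and 14. At d1 it was 2.20-fold above d0 (1.14) and 1.72-fold above d14 (0.78), and 0.488% of kept genes had a higher d1 ratio to d0. It remained 1.28-fold above d0 at d14 (0.35). Abra, Enah and Wdr1 each had their highest value at d1 and successively lower values at d3, d5 and d7. That order held in 3 of the 10 genes and in 5.5% of kept genes.

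The cofilins had smaller ratios. Cfl1, the form of most cell types, had intensities of 1433 at d0 and 2007 at d1, then 1797.5, 1576, 1587, 1815 and 1508 on days 3, 5, 7, 10 and 14. It was 1.40-fold above d0 at d1 (0.49), and its 2 highest later values were at d3 (0.33) and d10 (0.34). At d14 it stood 0.073 above d0. Cfl2, the muscle form, had intensities of 6695 at d0 and 8161 at d1, then 8297, 7508.5, 7917, 7528 and 7446 on days 3, 5, 7, 10 and 14. It was highest at d3 (0.31) with d1 close behind (0.29), and it lay between 0.15 and 0.24 above d0 on the remaining days. Against d14 the d1 ratio was 0.41 for Cfl1 and 0.13 for Cfl2. Of the kept genes, 5.84% had a higher d1 ratio to d0 than Cfl1 and 19.6% a higher one than Cfl2.

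Cap2, a cyclase-associated protein that takes part in monomer recycling, was nearly the same at d1 and d3. Its intensity was 5563 at d0 and 6629 at d1, then 6619, 5496, 5835, 5759 and 5754 on days 3, 5, 7, 10 and 14. The d1 and d3 arrays lay 0.25 above d0 and 0.20 above d14. All other reloading days lay between -0.018 and 0.069 from d0, so that its higher values were limited to these 2 arrays. The d1 ratio to d0 was not unusual, as 23.7% of kept genes had a higher one.

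The genes of the pointed end did not follow 1 course. Lmod2, best known from the heart, had intensities of 1556.5 at d0 and 2503 at d1, then 2238, 1986, 2235, 2096 and 2094 on days 3, 5, 7, 10 and 14. It was 1.61-fold above d0 at d1 (0.69) and stayed 0.35 to 0.52 above it from d3 on, with 62.4% of the d1 difference left at d14. Against d14 its d1 ratio was 0.26, and the d14 array itself lay 0.43 above d0.

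Tmod4, the main tropomodulin of fast fibres, was the only member below d0 at d1. Its intensity was 11142 at d0 and 10012 at d1, then 9903, 10163, 11272, 10565 and 11489 on days 3, 5, 7, 10 and 14. The d1 to d5 arrays were 0.13 to 0.17 below d0 on the log2 scale, d10 was 0.077 below it, and d7 and d14 were 0.017 and 0.044 above it. Against d14 its d1 ratio was -0.20. Of the 7 fast fibre markers, 0 were above d0 at d1, 1 at d3 and 3 at d5. Their median log2 ratios to d0 were -0.080, -0.054 and -0.010 on these days. The part of fast fibres in the Tmod4 values was not tested. Tmod1 had intensities of 4784 at d0 and 5195 at d1, then 4691, 4532, 5404, 4940.4 and 4784 on days 3, 5, 7, 10 and 14, a range of 0.25 with no order by day. Its d1 ratio was 0.12 against d0 and against d14, which had the same value. The range of Tmod4 over the 7 arrays was 0.21.

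**Figure D2:**
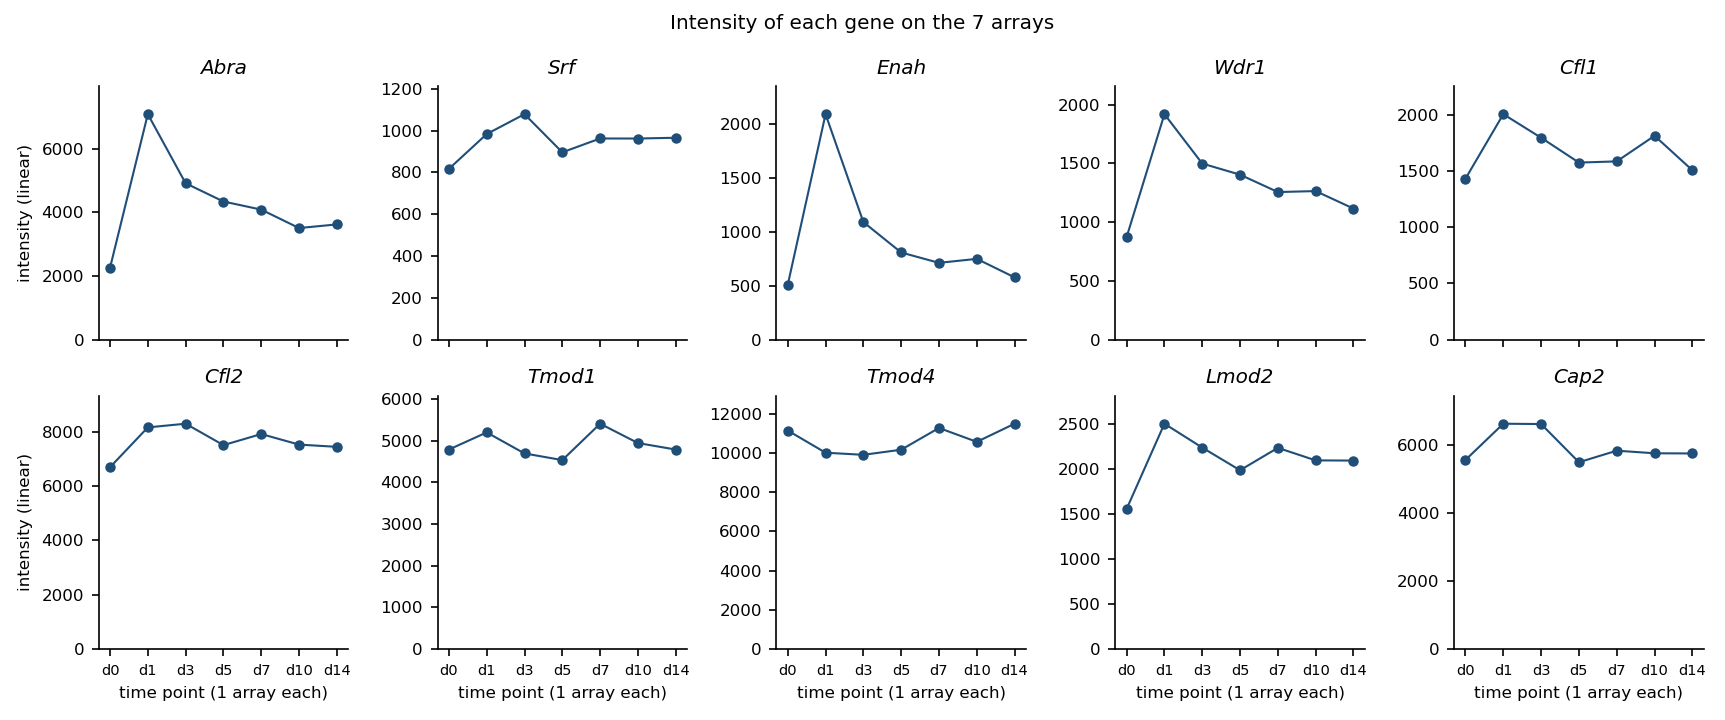
Intensity (linear scale from 0, as deposited) of each of the 10 genes on the 7 arrays. Each point is 1 array of RNA pooled from 6 animals, time points are evenly spaced, and lines join neighbouring days. Abra, Enah and Wdr1 peak at d1, while Tmod1 and Tmod4 stay within 0.25 and 0.21 (log2) over all arrays.

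Counted together, 3 of the 10 genes (Abra, Enah and Wdr1) were at least 2-fold higher at d1 than at d0 and 0 were 2-fold lower. Of all kept genes, 0.653% were 2-fold higher and 0.372% 2-fold lower on that day. At d3, 2 members (Abra and Enah) were 2-fold higher, against 0.413% of kept genes. From d5 on 0 members reached 2-fold, where 0.182% (d5), 0.19% (d7), 0.438% (d10) and 0.0661% (d14) of kept genes did. At 1.5-fold the counts were 4 at d1 with Lmod2, 3 at d3, 3 at d5 (Abra, Enah and Wdr1 on both days) and 1, Abra, on each of d7, d10 and d14. The shares of all kept genes at 1.5-fold higher were 3.45%, 1.65%, 1.36%, 1.74%, 2.28% and 0.678% in the same order. These are ratios of single arrays, so that the counts carry no test.

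The median log2 ratio of the 10 genes to d0 was 0.39 at d1 and 0.36 at d3, then 0.15, 0.24, 0.29 and 0.17 on days 5, 7, 10 and 14. The median of all kept genes on those days was 0.10, 0.066, 0.048, 0.075, 0.096 and 0.076. Set against d14, the median of the 10 genes was 0.23 at d1, 0.18 at d3, -0.027 at d5, 0.091 at d7 and 0.0087 at d10, and d0 stood at -0.17. On this basis 1 member, Enah, was 2-fold higher at d1, against 0.388% of kept genes. A total of 6 members, namely Abra, Enah, Wdr1, Cfl1, Lmod2 and Cap2, had their highest value at d1, where 28.6% of kept genes did. A total of 7 had their lowest at d0, against 39.4% of kept genes. Apart from ties, this is the same as lying above d0 on all 6 later arrays (the same 7, and 39% of kept genes).

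**Figure D3:**
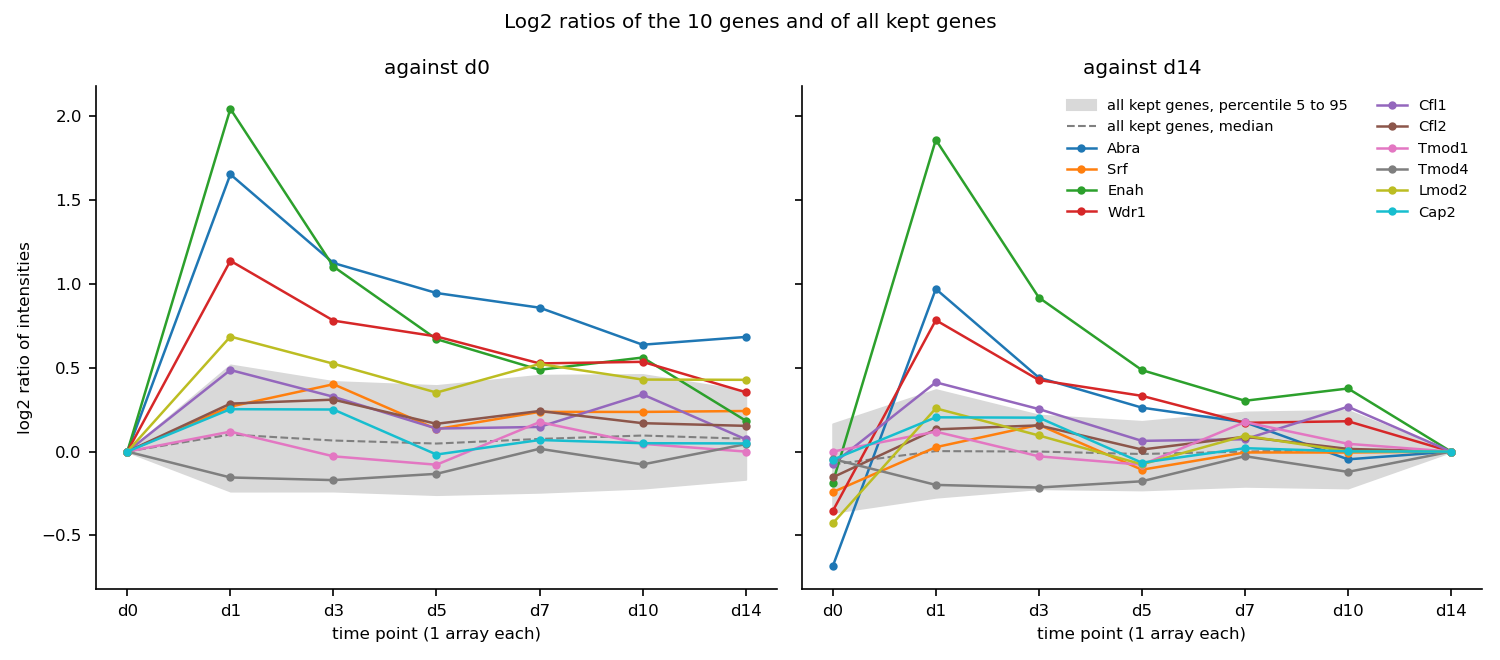
Log2 ratio of intensity against d0 (left) and against d14 (right) for the 10 genes, with the range from percentile 5 to 95 of the 12102 kept genes in grey. Each point is 1 array, and time points are evenly spaced. Abra, Enah and Wdr1 lie above the grey range at d1 in both panels.

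Slopes on log2(day + 1) were fitted by limma to all 12102 kept genes, for the reloading days alone and then with d0. From d1 to d14 (6 arrays), Enah fell by 0.60 ± 0.073 per doubling of day + 1 (limma slope and SE, adjusted p = 0.0469). Abra fell by 0.34 ± 0.038 and Wdr1 fell by 0.25 ± 0.027, both at the same adjusted p of 0.0469 from limma. These 3 are among 24 falling genes, 0.198% of those tested, and 19 genes (0.157%) rose. All 3 calls lay close to the threshold of 0.05. They were lost with no filter (limma adjusted p 0.0874 to 0.0917), with the day on a linear or a rank scale (0.144 to 0.368), and when any of the 6 arrays was left out (0.0818 to 0.314), while each slope stayed negative.

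The remaining 7 slopes did not pass. Tmod4 had the 1 positive slope, 0.069 ± 0.024 (limma adjusted p = 0.296), and Cfl1, Cap2, Lmod2 and Cfl2 had slopes of -0.11, -0.083, -0.082 and -0.051 (limma adjusted p 0.324 to 0.379). At an unadjusted p of 0.05, 6 of the 10 genes had a negative slope (Abra, Enah, Wdr1, Cap2, Cfl1 and Cfl2) and 1 a positive one (Tmod4), against 6.39% and 6.88% of kept genes. The slope of Srf was -0.027, with a 95% interval of -0.11 to 0.061, and that of Tmod1 -0.014, with an interval of -0.11 to 0.078. With d0 included (7 arrays), 0 of the 10 genes passed, and the limma adjusted p-values were 0.764 to 0.996. Over all kept genes 0 rose and 0 fell in that fit at adjusted p 0.05, against 1112 (9.19%) and 176 (1.45%) at an unadjusted p of 0.05. The Abra slope was then 0.030, with an interval of -0.27 to 0.33. This fit takes in both the low d0 array and the high d1 array.

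**Figure D4:**
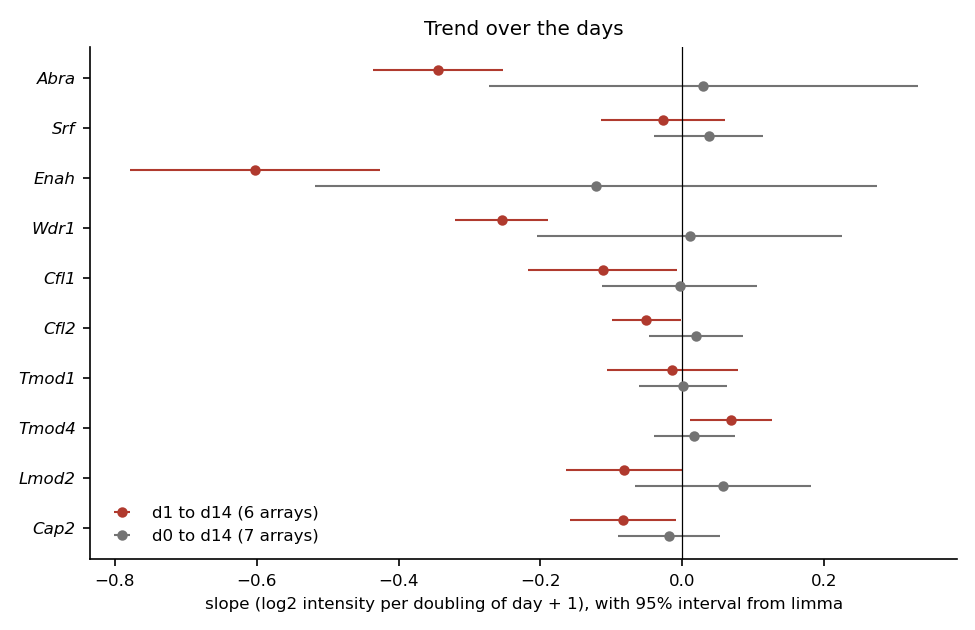
Slope of log2 intensity per doubling of day + 1 for the 10 genes, with 95% intervals from limma. Red points use d1 to d14 (6 arrays) and grey points d0 to d14 (7 arrays). The red intervals of Abra, Enah and Wdr1 lie well below 0, at -0.34, -0.60 and -0.25.

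The genes whose course over the 7 arrays was most like that of Abra, among 1878 named kept genes with a range of at least 0.5, included chaperones. They were the chaperone Hsph1 (Pearson r = 0.994, log2 1.76 at d1 against d0), Tpra1 (0.992, 0.77), the co-chaperone Stip1 (0.992, 0.81), Hspa8 (0.989, 0.51) and the calcineurin regulator Rcan1 (0.982, 1.62). Over d1 to d14 (6 arrays, 1127 candidates) the list was Hsph1 (0.994), Tpra1 (0.992), Xirp1 (0.990), Decr2 (0.990) and Stip1 (0.985). Enah ran most like Malat1 (0.993), the actin-binding Xirp1 (0.989), Otud1 (0.989), the chaperone Hsp90aa1 (0.989) and Smyd5 (0.988). Srf had looser company, with Lrrc32 at 0.975 and Atp8b1, G0s2, Mapt and Hils1 at 0.915 to 0.942. These correlations describe 7 points, or 6 without d0, that share the d1 array, and no more is read from them.

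Other genes of the pathway were taken from 5 lists, which leave the 10 genes out. Of 18 kept partners of STARS, MRTF and SRF, 0 were 1.5-fold higher or lower at d1, and their median was 0.12, against 0.10 for all kept genes; against d14 it was 0.048. The STARS-binding protein gene Ablim1 had the largest ratio, with an intensity of 667 at d1 and 450.4 at d0 (0.57). The coactivator gene Mrtfa, read at 470.3 at d1 and 396 at d0, stood at 0.25. Ppargc1a, whose product drives Abra transcription with ERRα in muscle cells, stood at 0.24. Of the 18, 0 passed the trend test over d1 to d14 in either direction.

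The SRF targets had a median of 0.33 at d1 over 29 kept genes, and 5 of 29 were 1.5-fold higher, against 3.45% of kept genes. The integrin Itga5 was read at 425 at d1 and 218 at d0 (0.96), vinculin (Vcl) at 1416 and 750.5 (0.92), the non-muscle myosin Myh9 at 800.2 and 473 (0.76) and talin (Tln1) at 963 and 575.5 (0.74). The last of the 5 was the tropomyosin Tpm4 (0.64), named after its value was seen. Against d14 the median of the list was 0.085 at d1. Of 29, 0 passed the trend test. The cardiac actin Actc1, the 1 gene of the list past 2-fold at d7 and likewise named after its value was seen, stood at 1.60 on that day, when Abra stood at 0.86 and Srf at 0.24.

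Filament turnover genes had a median of 0.21 at d1 over 30 kept genes and of 0.040 against d14. At least 1.5-fold higher were 2 of 30, against 3.45% of kept genes: the capping protein Capg (0.87) and the twinfilin Twf2 (0.67). Cap1, the close relative of Cap2, stood at 0.57, and the leukocyte coronin Coro1a at 0.52. Nucleators and elongators had a d1 median of 0.17 over 29 genes and of 0.086 against d14. Of the 29, 4 were 1.5-fold higher at d1, against the same 3.45%, namely the Arp2/3 subunit Arpc1b (0.83) and the formins Diaph1 (0.71), Fhod3 (0.61) and Fhod1 (0.60). Of the 30 and of the 29, 0 passed the trend test in either direction.

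Genes of filament ends and the thin filament had a median of 0.22 at d1 over 24 kept genes and of 0.14 against d14. At least 1.5-fold higher were 5 of 24 and at least 2-fold higher 3 of 24, against 3.45% and 0.653% of kept genes. Xirp1, a binding protein of repairing myofibrils, was read at 6668 at d1 and 891 at d0 (2.90), and filamin C (Flnc) at 10409 and 2402 (2.12). Klhl40, a kelch protein known to stabilise nebulin and the leiomodin Lmod3, was read at 1529 at d1 and 469 at d0 (1.71). The Z-disc gene Actn2 stood at 0.75 and Tpm4, which is on both lists, at 0.64. Xirp1 alone of the 24 fell in the trend test over d1 to d14 (slope -0.79 ± 0.090, limma adjusted p = 0.0469), the same adjusted p as Abra, Enah and Wdr1, where 0.198% of kept genes fell. Its call, too, was lost with no filter (limma adjusted p = 0.0917), with the day on a linear or a rank scale (0.16 to 0.376) and when any of the 6 arrays was left out (0.0987 to 0.303). Klhl40 had a slope of -0.48 (limma adjusted p = 0.0799).

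**Figure D5:**
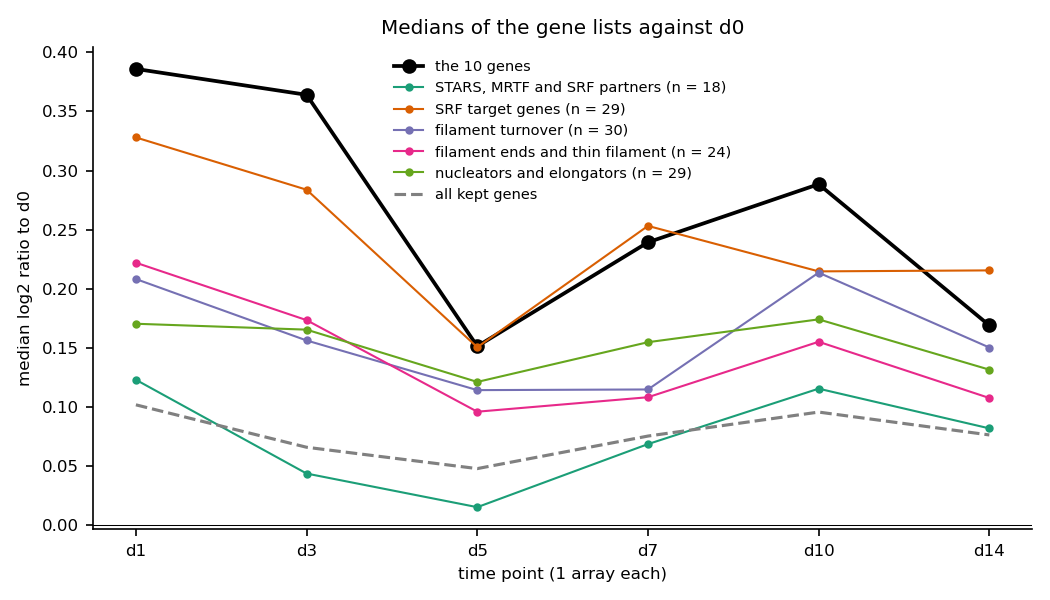
Median log2 ratio to d0 on each later array for the 10 genes (black), for 5 gene lists without them, and for all kept genes (dashed). Each point is a median over genes on 1 array, and time points are evenly spaced. At d1 the 10 genes stand at 0.39, the SRF targets at 0.33 and all kept genes at 0.10.

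Markers of slow fibres and of other cells also differed between the arrays. All 4 slow fibre markers (Myh7, Tnnt1, Tnni1, Myl2) were above d0 on each array from d1 to d10 and 3 of 4 at d14. Their summed intensity was 1534 at d0, 2298 at d1 and 3633 at d3, then 2833, 2340.3, 3307 and 2107 on days 5, 7, 10 and 14. Their median log2 ratio to d0 was 0.58 at d1 and 1.23 at d3. Of the 5 fibroblast markers, Col1a1, Col3a1 and Lum were above d0 on every later array and Pdgfra and Dcn below it, and their sum was 12271 at d1 and 13413 at d0. All 6 macrophage markers were above d0 at d1, and their summed intensity was 4599.9 at d1, 4444 at d3 and 3807 at d5, against 2879.5 at d0. That sum was 2762 at d7, 3649.8 at d10 and 2571 at d14. Cd68 weighed most in the d1 sum, at 1345.5 against 326.5 at d0 (2.04), where the median of the 6 was 0.38. The 6 neutrophil markers summed to 1555 at d1, 2326 at d3 and 5254 at d10, against 775 at d0. The 5 smooth muscle markers, a cell type in which SRF targets are high, summed to 3709 at d1 and 3376 at d0. The marker Cnn1 is also on the list of SRF targets, so the markers and that list are not separate sets. The 4 endothelial markers summed to 3639.6 at d1 and 2884 at d0. Smtn of the smooth muscle markers and Tek of the endothelial ones were slightly below d0 at d1 (-0.031 and -0.042). The lowest marker value was that of S100a8, 90.6 at d0, below the median of 129.9 over all rows of that array. Cfl1, Wdr1, Itga5, Capg and Coro1a are also made by these cells, and the part of such cells in their values, and of slow fibres in those of the 10 genes, was not tested.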

How the data were processed

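RNA of 6 left plantaris muscles was pooled per time point and each pool was run on its own Affymetrix Mouse Gene 1.0 ST array, per the series' design text. The authors deposited linear intensities, a single value for each transcript cluster on each array, which they had normalized between arrays. The submitters' processing notes name Partek, with no version or step. How background was corrected, how probes were summarized and which genome build was used is, in the sources used here, not given. The log2 of each value was used with a pseudocount of 0.

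A gene was named from rows with 1 symbol in the platform annotation (21789 of 35556 rows). It was kept when it reached the median of all rows (percentile 50) on at least 1 array. Ratios of 1 array to 1 array had no test. Trends were fitted in R 4.3.3 by limma 3.58.1 (lmFit, eBayes with an intensity trend, two-sided, Benjamini-Hochberg over all kept genes) and checked on simulated data. The spread in these fits is that of single arrays of different days about the line. Named beyond the members were the 4 genes per list with the largest absolute d1 ratio (1 gene of the partners of STARS, MRTF and SRF is not reported here) and the 5 genes most like Abra, Srf and Enah by Pearson's r. Python 3.11.15, numpy 2.4.6, pandas 2.3.3 and matplotlib 3.10.9 did the rest.

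The members, the lists and the fit without d0 were chosen with earlier results of these data known. Alternatives were other filters, normalizations, row choices, pseudocounts, day scales and reference arrays, and each array left out.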

Additional observations from a re-analysis of the deposited data

How the results depend on the processing

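The number of the 10 genes that passed the d1 to d14 trend, 3 as reported, was 3 after quantile normalization, with a filter at percentile 75, with a pseudocount of 16, with equal medians of the arrays, with rows of a gene averaged, and with kept genes centred per array (the last chosen after the data were seen). It was 0 with no filter, with the day on a linear scale, with the rank of the day and without any 1 of the 6 arrays (range 0 to 0). The fit then has fewer arrays or adjusts over more genes, or takes another shape of the course; otherwise the cause was not tested. Over all kept genes the 19 rising and 24 falling calls became 93 and 69 with the filter at percentile 75, 74 and 65 after quantile normalization, 31 and 29 with equal medians, 91 and 98 after centring, 0 and 3 with no filter, 0 and 0 on a linear day scale, 0 and 1 on ranks, and 0 rising and 0 to 3 falling without 1 array. In the d0 to d14 trend the count of members was 0 to 3 when 1 array was left out, with 3 reached without d0. The slopes then ranged from -0.34 to 0.16 for Abra and from -0.25 to 0.100 for Wdr1, and were negative for both without d0.

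The medians against d0 moved most with the reference. With d14 as the reference they were 0.23 (d1), 0.18 (d3), -0.027 (d5), 0.091 (d7) and 0.0087 (d10). With the mean of the 6 other arrays they were 0.25 (d1), 0.16 (d3), -0.078 (d5), 0.020 (d7), -0.017 (d10) and -0.047 (d14). So the sign at d5, d10 and d14 depends on the reference. The number of members past 2-fold was 1 at d1 and 0 at d3 with either of these references. Past 1.5-fold against d0 it was 3 at d5 and 1 each at d7, d10 and d14; against d14 it was 3 at d1, 1 at d3 and 0 at d5, d7 and d10. Normalization, row choice and pseudocount left the counts past 2-fold against d0 unchanged. They left the medians against d0 within 0.0896 (log2) of those reported, the smallest robust SD between 2 arrays. The other counts were not recomputed in these settings. No paired analysis was possible because each time point has 1 array. Detection above background was not analysed here.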

Other observations

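The 10 genes ran together to different degrees. Over the 7 arrays Abra and Wdr1 had a Pearson r of 0.981, Enah and Wdr1 0.944, Cfl2 and Lmod2 0.935, and Cfl2 and Srf 0.907. Over d1 to d14 alone, Enah and Wdr1 had 0.985, and Cfl2 and Cap2 0.910. Abra and Srf had 0.69 over the 7 arrays and 0.29 without d0. Tmod4 ran against Abra (-0.67), Enah (-0.77) and Wdr1 (-0.77) over the 7 arrays, and against Wdr1 (-0.80) over d1 to d14. These values describe 7 or 6 arrays that all pairs share.

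Srf, Cfl2 and Cap2 were all at or near their highest at d3 and lower at d5, by log2 differences of -0.27, -0.14 and -0.27 between these neighbouring days. Abra, Enah and Wdr1 differed by -0.18, -0.43 and -0.094 over the same step, and by -0.53, -0.94 and -0.36 over the step before it, from d1 to d3.

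Cfl1 was 0.19 higher at d10 than at d7 and 0.27 lower at d14 than at d10, the days on which the neutrophil markers summed to 1276 (d7), 5254 (d10) and 996 (d14). Over the same 2 steps Cfl2 differed by -0.073 and -0.016. On d7, d10 and d14 the macrophage markers summed to 2762, 3649.8 and 2571, and the slow fibre markers to 2340.3, 3307 and 2107. From d1 to d3 the neutrophil sum was 1555 and then 2326, while Cfl1 differed by -0.16. Its highest value was at d1. The part of neutrophils or of these other cells in the Cfl1 value was not tested.

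The Tmod1 intensity was exactly 4784.3 at d0 and at d14. Its second row read 229.6 on all 4 of d0, d1, d3 and d5, then 235, 216.9 and 263.5 on days 7, 10 and 14. Of all 35556 rows, 53.7% held the same value on at least 2 arrays.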
